A study of Danio rerio with 16 samples.

Results

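The comparison is between klf9-/- and wild-type (WT) zebrafish larvae that both developed in cortisol, and it takes 8 of the 16 RNA-seq samples of the klf9 experiment: 4 of klf9-/- larvae with cortisol and 4 of WT larvae with cortisol. The samples were chosen by their labels alone, as all samples treated with cortisol. The other 8 samples, klf9-/- and WT larvae with vehicle, are used only to set the same genes side by side. All larvae were of the AB strain. The mutant line carries a frameshift deletion of 2 bp in exon 1 of klf9 that came from a single founder female. Cortisol (1 μM) or the vehicle DMSO was in the embryo medium from 4 h post-fertilization, and whole larvae were collected on day 5, 3 h after lights on (14 h of light and 10 h of darkness a day), with 10 larvae pooled in each sample. The 4 samples of a condition came from 1 dish, so that dish and condition cannot be told apart and p-values measure only the spread between these samples. The paper states that the WT and klf9-/- larvae came from sibling parents. Differences between the parents therefore cannot be told apart from genotype for any gene. Preparation of the RNA took 2 days, with replicates 1 and 2 on the first and replicates 3 and 4 on the second, called day 1 and day 2, and below the 4 values of a group are always given in the order of the replicates.

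Cortisol, the main glucocorticoid of fish, acts through the glucocorticoid receptor, a nuclear receptor that binds DNA and switches target genes on or off. klf9 encodes a Krüppel-like zinc finger factor that binds GC-rich promoter elements and is itself a direct target of the glucocorticoid receptor in many vertebrate tissues, where it mostly acts as a repressor. Glucocorticoids are known for holding down inflammatory genes and for raising gluconeogenic and catabolic genes.

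The values are normalized counts, which the authors brought to the same distribution in every sample, so that the 8 samples (and all 16) have the same sum of 14653434 and the number of reads behind a value is unknown. Tests in limma were made on the log2 values of all genes whose mean over the 16 samples reached 5 normalized counts, with preparation day as a covariate. Genes of low counts can reach that mean only through the group in which they are high. SAA2, psmb8a, irf10 and il1b reached it through WT larvae with cortisol, and p-values of such genes add no support to their values. A gene is called when its Benjamini-Hochberg adjusted p over all 21479 genes tested is under 0.05, and log2 differences are klf9-/- minus WT with cortisol unless another treatment is named. Symbols in capitals are the human-style names of the annotation table used for the gene identifiers. Genes with near-identical copies (the he1, MFAP4, myosin, histone and many si: genes) share reads that the authors' counting divides among the copies, and their values are uncertain to that extent.

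The klf9 transcript itself, which checks the labels, had 106, 134, 136 and 111 normalized counts in klf9-/- larvae with cortisol and 330, 511, 354 and 340 normalized counts in WT larvae with cortisol. All mutant samples lay below all WT samples, and replicate 2 was the highest WT sample. The log2 difference was -1.64 (SE 0.14, adjusted p = 0.00047), and an exact permutation test over the 70 divisions of the 8 samples gave a two-sided p = 0.0286, the smallest that 4 samples against 4 allow. With vehicle the values were 135, 78, 100 and 111 normalized counts in klf9-/- larvae and 274, 250, 243 and 165 normalized counts in WT larvae, a log2 difference of -1.14 (adjusted p = 0.037).

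Of the 21479 genes tested, 194 were higher (0.903%) and 457 lower (2.13%) in klf9-/- larvae, together 3.03%. Genes of macrophages, of the interferon response and of sterol synthesis were among the lower ones, and glycolytic enzymes among the higher ones. All 651 called genes differed in the same direction in each of the 4 pairs of same-numbered samples and on both preparation days. A call with 4 samples against 4 nearly requires this, so that it adds no support. In 373 of the called genes the samples of the groups did not overlap, beside 871 (4.06%) among all genes tested. An absolute log2 difference of at least 1 was reached by 31 of the higher and 195 of the lower genes. The median difference was 0.499 among the higher and -0.893 among the lower genes, against 0.0183 over all genes. The counts depended on single samples. The higher genes numbered 85 without klf9-/- replicate 1, 111 without klf9-/- replicate 2, 105 and 112 without WT replicates 1 and 2, and 78 and 82 without WT replicates 3 and 4. The lower genes numbered 265 without klf9-/- replicate 1 and 272, 278, 248 and 304 without WT replicates 1, 2, 3 and 4. In all 8 of these fits 48 of the higher and 209 of the lower genes were called. At an unadjusted p under 0.05 in limma there were 3736 of the 21479 genes, in either direction. List counts given below at that limit are to be read against this number. The shares of 0.903% higher and 2.13% lower are the background for the calls in each list.

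Genes of the interferon response were lower in klf9-/- larvae with cortisol. Interferons are antiviral cytokines that act through receptors on the cell surface and induce antiviral GTPases, guanylate-binding proteins and the antigen-processing machinery. Of 37 interferon-stimulated genes and regulators tested, 18 were lower (48.6%, against 2.13% of all genes), 36 had a negative difference, and the median was -0.77 (0.045 with vehicle). The summed level of the list was 4722 to 6376 normalized counts in klf9-/- larvae with cortisol and 6044 to 11074 in WT larvae with cortisol. The sums with vehicle were 4288 to 5489 normalized counts in klf9-/- larvae and 4008 to 5360 in WT larvae. Among the 4 groups, WT larvae with cortisol had the highest mean for 34 of the 37 genes (91.9%, against 26.4% of all genes tested). The 18 and the 34 include irf10 and psmb8a, which passed the limit on the mean only through WT larvae with cortisol. These genes add no support to either count. Leaving out single samples gave 14 to 20 called genes, and 14 of the 18 were called in all 8 of those fits. With the test limited to means of 75 normalized counts or more, 11 genes of the list could be tested and 3 of them were called.

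Regulators of the response were lower as well. irf1b, one of the paralogs of the transcription factor IRF1, had 109, 108, 82 and 49 normalized counts in klf9-/- larvae and 895, 838, 288 and 218 in WT larvae. All mutant samples lay below all WT samples, and the WT samples of day 1 were the highest. The log2 difference was -2.49 (SE 0.22, adjusted p = 0.00047). irf10, an interferon regulatory factor, had 5, 10, 5 and 4 normalized counts in klf9-/- larvae against 53, 42, 18 and 14 in WT larvae (log2 difference -2.26, SE 0.29, adjusted p = 0.0034). The groups did not overlap, but irf10 passed the limit on the mean only through WT larvae with cortisol, and its p-value adds no support. SOCS1, a feedback inhibitor of cytokine receptors, had a smaller difference of -0.88 (SE 0.14, adjusted p = 0.010), with 60, 54, 35 and 35 normalized counts in klf9-/- larvae and 87, 134, 70 and 56 in WT larvae, and its groups overlapped.

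Antiviral effector genes were lower too. The Mx GTPase gene mxc had 16, 22, 11 and 6 normalized counts in klf9-/- larvae and 314, 358, 140 and 92 in WT larvae. Its log2 difference was -3.97 (SE 0.22, adjusted p = 4.8e-05), and the lowest WT sample was above the highest mutant sample. A second Mx gene, mxf, was listed at 0, 4, 0 and 0 normalized counts in klf9-/- larvae and at 172, 162, 118 and 97 in WT larvae. Its fitted difference of -9.05 (adjusted p = 0.0011) rests on values near 0, and with 10 normalized counts added before log2 it was -3.73 (adjusted p = 1.8e-06). The interferon-induced gene ifi44a8 was listed at 0, 1, 0 and 0 in klf9-/- larvae and at 28, 28, 16 and 13 in WT larvae (-1.57 with 10 added, adjusted p = 0.00037). Its paralog ifi44a1 had 1, 1, 2 and 3 normalized counts in klf9-/- larvae and 35, 28, 16 and 15 in WT larvae (-1.47 with 10 added, adjusted p = 0.0017). In vehicle-treated larvae these Mx and ifi44 genes stayed at or under 24 normalized counts in every sample of both genotypes. For mxf, ifi44a8 and ifi44a1 every klf9-/- sample with cortisol lay under 5 normalized counts. Among the cortisol samples, the WT group alone carried these genes past the limit on the mean.

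Guanylate-binding proteins and the immunoproteasome followed the same direction. gbp1, a GTPase that attacks the vacuoles of pathogens in mammals, had 40, 42, 26 and 19 normalized counts in klf9-/- larvae and 130, 130, 78 and 69 in WT larvae (log2 difference -1.69, SE 0.12, adjusted p = 0.00011). psmb8a and psmb10 encode catalytic subunits that replace the standard ones in the immunoproteasome. psmb8a had 3, 2, 6 and 3 normalized counts in klf9-/- larvae and 42, 38, 15 and 15 in WT larvae (log2 difference -2.88, SE 0.45, adjusted p = 0.0084), and psmb10 differed by -0.87 (SE 0.11, adjusted p = 0.0029). Groups did not overlap for gbp1 and psmb8a, while those of psmb10 did.

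The proteasome list holds the standard 20S and 19S subunits and the PA28 activator. Of 41 genes tested, 35 had a negative difference with cortisol, and 35 had one with vehicle as well. The median was -0.09 with cortisol (-0.212 on day 1 and 0.011 on day 2) and -0.062 with vehicle. With cortisol 10 were lower and 0 higher at an unadjusted p under 0.05. The 2 called were psme1 and psme2, the PA28 subunits that open the proteasome for antigen processing. psme2 had 92, 85, 54 and 51 normalized counts in klf9-/- larvae and 300, 232, 146 and 102 in WT larvae, and these ranges did not overlap. Its log2 difference was -1.40 (SE 0.14, adjusted p = 0.00085), and psme1 had a difference of -0.77 (SE 0.10, adjusted p = 0.0031) with overlapping groups. The standard subunits psmc4, psmd1 and psmb4, 3 abundant members named under the rule, had log2 differences of -0.03, -0.06 and -0.09 that were not called, and no test compared the kinds of subunit.

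Further called members were named after their values had been seen, since the rule for single genes stops at 8 a list. b2m, the light chain of MHC class I, differed by -0.77 (adjusted p = 0.0059). isg15, a ubiquitin-like modifier, had 5, 5, 6 and 6 normalized counts in klf9-/- larvae and 17, 31, 16 and 15 in WT larvae, without overlap (log2 difference -1.77, SE 0.28, adjusted p = 0.0085). dhx58, a sensor of viral RNA, differed by -1.62 and ifi35 by -1.41, each called in all fits without 1 sample. The pro-apoptotic XIAP partner xaf1 (-1.14, adjusted p = 0.0039) and the PARP family gene parp14rs1 (-1.25, adjusted p = 0.00031), which are named under the rule, had 33, 28, 23 and 22 and 94, 85, 76 and 68 normalized counts in klf9-/- larvae. In WT larvae xaf1 had 90, 78, 40 and 40 and parp14rs1 had 232, 248, 165 and 140 normalized counts, above every mutant sample for both genes.

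**Figure D1:**
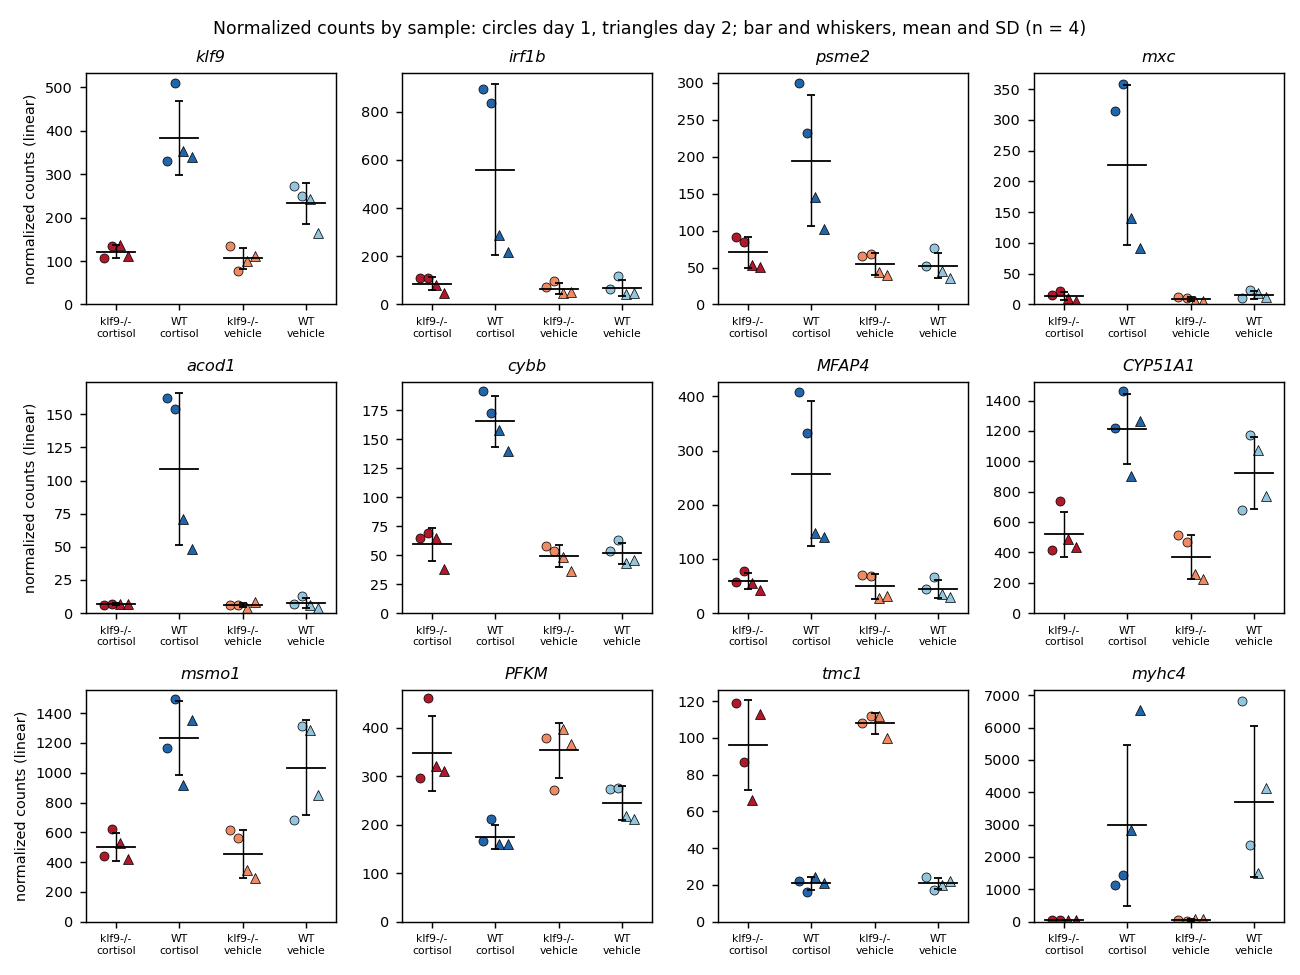
Normalized counts (linear axis) of 12 genes in each of the 16 samples; circles are samples prepared on day 1 and triangles on day 2, and the bar and whiskers are mean and SD (n = 4). For irf1b, psme2, mxc, acod1, cybb and MFAP4 the WT samples with cortisol stand above the other 3 groups, whereas tmc1 and myhc4 were called under both treatments, with log2 differences of 2.19 and -5.68 with cortisol and 2.38 and -5.83 with vehicle.

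Macrophage genes were lower as well. Of 36 genes tested that mark macrophages or their microbicidal functions, 18 were lower (50%) and 34 had a negative difference, with a median of -0.66 (-0.08 with vehicle). Summed over the list, klf9-/- larvae with cortisol had 13637 to 16342 normalized counts and WT larvae with cortisol 15126 to 22147, while the sums with vehicle were 9914 to 17281 in klf9-/- and 10855 to 16676 in WT larvae. WT larvae with cortisol had the highest mean of the 4 groups for 33 of the 36 genes (91.7%). No gene of the list was listed at 0 in all 8 samples. In whole larvae, fewer cells of a type and less RNA per cell cannot be told apart. The number called was 10 without WT replicate 3 and 11 without klf9-/- replicate 1 or WT replicate 1, and 10 genes were called in all 8 fits without 1 sample. With vehicle none of the list was called by limma, and 2 genes were lower and 0 higher at an unadjusted p under 0.05.

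The strongest macrophage difference was in acod1, which makes the antimicrobial metabolite itaconate. It had 6, 7, 7 and 7 normalized counts in klf9-/- larvae and 162, 154, 71 and 48 in WT larvae, so that the lowest WT sample exceeded every mutant sample. The log2 difference was -3.81 (SE 0.29, adjusted p = 0.00020). The vehicle samples had 6, 6, 4 and 8 normalized counts in klf9-/- larvae and 7, 13, 6 and 4 in WT larvae.

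Subunits of the phagocyte NADPH oxidase, the enzyme complex that makes superoxide to kill microbes, were lower as well. cybb, its catalytic subunit, had 65, 69, 65 and 38 normalized counts in klf9-/- larvae and 192, 173, 158 and 140 in WT larvae, with no overlap (log2 difference -1.51, SE 0.15, adjusted p = 0.00086). ncf1, a cytosolic organizer of the complex, had 80, 63, 55 and 44 normalized counts in klf9-/- larvae and 177, 184, 98 and 96 in WT larvae, also without overlap (log2 difference -1.16, SE 0.12, adjusted p = 0.0011). The membrane subunit cyba, outside the rule for single genes, differed by -0.55 (adjusted p = 0.021), but lost its call in 6 of the 8 fits without 1 sample.

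Pattern-recognition and marker genes showed similar sizes. marco, a scavenger receptor for bacteria, had 20, 22, 17 and 14 normalized counts in klf9-/- larvae and 64, 48, 40 and 49 in WT larvae (log2 difference -1.46, SE 0.15, adjusted p = 0.00098). MPEG1 (ENSDARG00000043093), a pore-forming protein used as a macrophage marker in zebrafish, had 465, 424, 254 and 180 normalized counts in klf9-/- larvae and 990, 924, 515 and 350 in WT larvae (log2 difference -1.05, SE 0.13, adjusted p = 0.0032). Values of marco did not overlap and those of MPEG1 did. Both called copies of MFAP4, another macrophage marker of zebrafish, differed by -2.01 (ENSDARG00000090783, adjusted p = 0.00068) and -1.73 (ENSDARG00000088745, adjusted p = 0.0017). The first had 58, 78, 56 and 42 normalized counts in klf9-/- larvae and 408, 332, 148 and 140 in WT larvae. The leukocyte actin bundler lcp1 had 228, 273, 215 and 172 normalized counts in klf9-/- larvae and 426, 398, 350 and 412 in WT larvae, a difference of -0.85 (SE 0.10, adjusted p = 0.0026) without overlap. irf8, the transcription factor that zebrafish macrophages need to form, was named outside the rule and had 26, 38, 28 and 22 normalized counts in klf9-/- larvae against 92, 74, 56 and 50 in WT larvae (log2 difference -1.24, SE 0.16, adjusted p = 0.0033).

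Neutrophil and cytokine genes gave fewer calls. Of 20 neutrophil genes, 4 were lower (20.0%), and the median difference was -0.22 (2 called without klf9-/- replicate 1 or WT replicate 1). mmp9, a matrix metalloproteinase of migrating leukocytes, had 100, 110, 103 and 62 normalized counts in klf9-/- larvae and 325, 458, 191 and 128 in WT larvae, with no overlap and a log2 difference of -1.42 (SE 0.23, adjusted p = 0.011). LECT2 (ENSDARG00000090889), named for chemotactic activity on leukocytes and also made in liver, had 11, 19, 14 and 2 normalized counts in klf9-/- larvae and 123, 124, 43 and 36 in WT larvae (log2 difference -2.97, SE 0.48, adjusted p = 0.010). Both were called in every fit without 1 sample. Of 48 genes of cytokine signalling 5 were lower, a count that was 3 without klf9-/- replicate 1 or 2 or WT replicate 1, 2 or 3, and 10 without klf9-/- replicate 3. Among them, il1b, the inflammatory cytokine interleukin-1β, had 4, 5, 4 and 6 normalized counts in klf9-/- larvae and 32, 36, 12 and 9 in WT larvae, a difference of -1.98 (SE 0.38, adjusted p = 0.023, and 0.059 with a replicate block). It lost its call in 5 of the 8 fits without 1 sample. il1b is counted in the neutrophil and the cytokine list. It passed the limit on the mean only through WT larvae with cortisol, and adds no support to either count. The receptor chain il20ra (-0.45, adjusted p = 0.0052) and the chemokine ccl19a.1 (-1.15, adjusted p = 0.018) were called as well. The call of ccl19a.1 was lost in 5 of the 8 fits without 1 sample.

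The acute-phase gene SAA2, whose product rises in blood during inflammation, was listed at 0 in all 4 klf9-/- samples with cortisol and at 29, 40, 14 and 11 normalized counts in WT larvae with cortisol. No fold or p-value is given against a group at 0, since SAA2 passed the limit on the mean only through WT larvae with cortisol. With vehicle it was listed at 0 in all klf9-/- samples and at 1, 2, 1 and 0 in WT larvae. The glucose transporter gene slc2a6, expressed mainly in leukocytes, had 14, 12, 14 and 9 normalized counts in klf9-/- larvae and 132, 122, 92 and 70 in WT larvae. Its log2 difference was -3.05 (SE 0.18, adjusted p = 5.4e-05), with the groups far apart. Complement, most of which is made in liver, gave 1 lower gene in 28 (3.57%, beside 2.13% of all genes), c3a.6 (-0.67, adjusted p = 0.035). The call of c3a.6 was lost in 6 of the 8 fits without 1 sample. With vehicle 6 of the 28 were called higher and 0 lower by limma, and the median was 0.297, against -0.053 with cortisol. Liver plasma proteins gave 1 higher gene in 37 (2.7%, beside 0.903% of all genes), the antiplasmin gene serpinf2b (0.36, adjusted p = 0.044, and 0.074 with a replicate block).

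**Figure D2:**
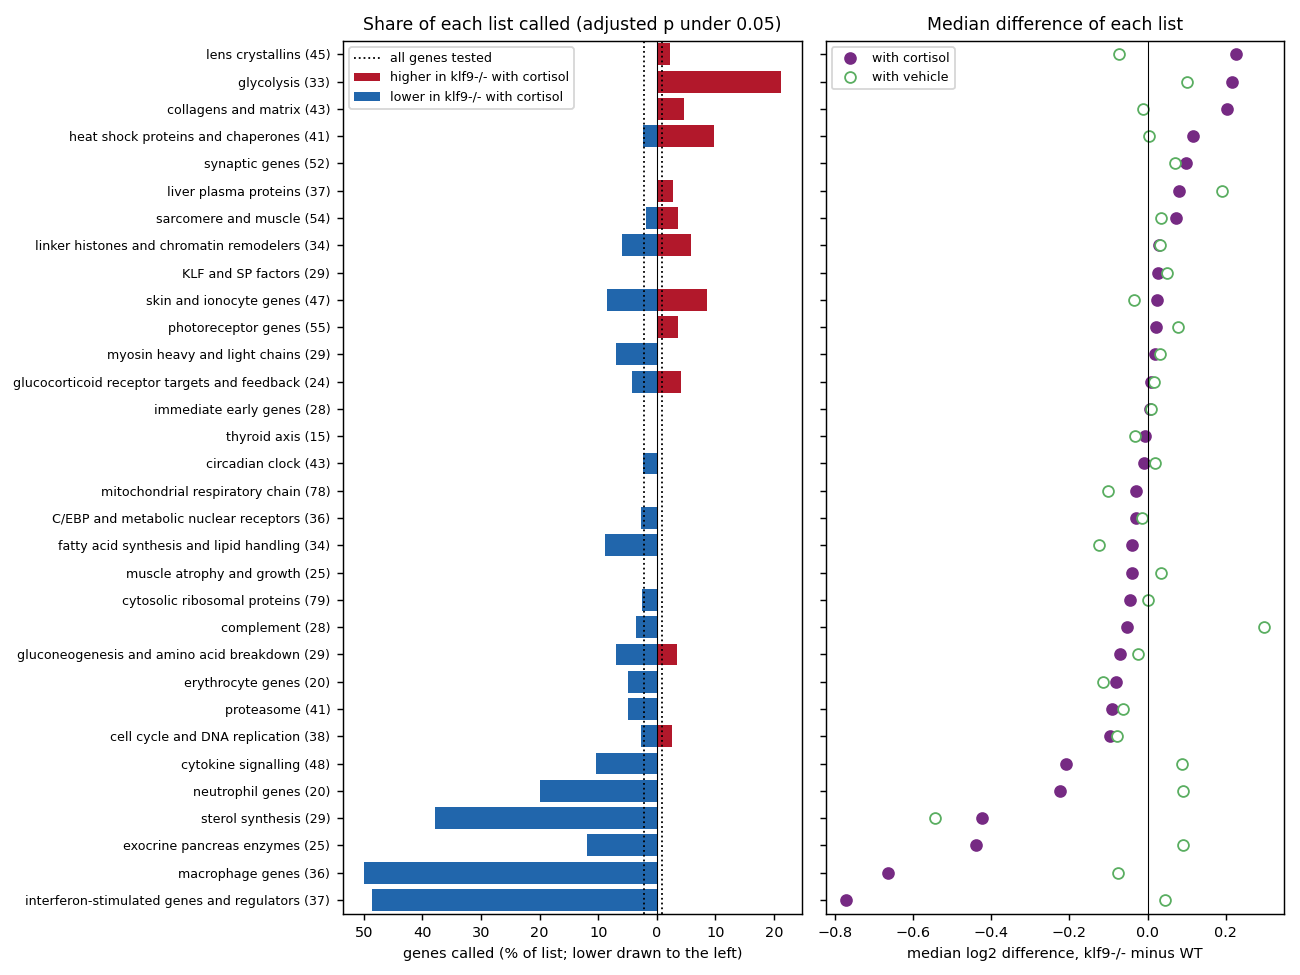
Left, the percentage of each list called, with genes higher in klf9-/- larvae with cortisol to the right of 0 and lower genes to the left (number of genes tested in parentheses, dotted lines at 0.903% and 2.13% of all genes); right, the median log2 difference of each list with cortisol (filled) and with vehicle (open). The interferon, macrophage and sterol lists stand at 48.6%, 50% and 37.9% lower and glycolysis at 21.2% higher, and of these the interferon and macrophage medians lie near 0 with vehicle.

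The difference itself was tested between the treatments, as the interaction of genotype and treatment in limma with all 16 samples. It was called for 57 genes (0.265% of 21479), in each of which the klf9-/- minus WT difference was more negative with cortisol than with vehicle. Of these, 55 were also called lower with cortisol, with log2 differences of -3.97 to -0.59 with cortisol and -0.85 to 0.86 with vehicle. Of the 55, 17 belonged to the interferon, macrophage, neutrophil, cytokine or proteasome lists, 7 each to the interferon and macrophage lists. The cortisol minus vehicle difference was -3.12 for mxc (adjusted p = 0.0023), -3.59 for acod1 (adjusted p = 0.0031), -2.69 for slc2a6 (adjusted p = 0.00086), -2.47 for irf1b (adjusted p = 0.0023) and -1.43 for cybb (adjusted p = 0.0041). A more positive difference with cortisol was called by limma for 0 genes, beside 925 at an unadjusted p under 0.05 (825 more negative), and for 21 genes when klf9-/- vehicle replicate 4 was left out. The 57 fell to 33 without klf9-/- cortisol replicate 1 or 2 or WT cortisol replicate 1, to 32 without WT cortisol replicate 3 and to 36 without klf9-/- vehicle replicate 1.

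With vehicle alone, 44 genes were higher (0.205%) and 59 lower (0.275%) in klf9-/- larvae. Of the genes called with cortisol, 22 of the 194 higher (11.3%) and 33 of the 457 lower (7.22%) were called in the same direction with vehicle, which makes 50% of the genes higher with vehicle and 55.9% of the genes lower with vehicle. A single gene (ENSDARG00000098204), with no symbol, was called in opposite directions, at 21, 30, 33 and 25 normalized counts in klf9-/- larvae with cortisol and 70, 55, 57 and 50 in WT larvae with cortisol, but 34, 38, 38 and 38 in klf9-/- larvae with vehicle and 20, 16, 25 and 21 in WT larvae with vehicle. The median vehicle difference was 0.379 for the genes higher with cortisol and -0.344 for the genes lower with cortisol.

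**Figure D3:**
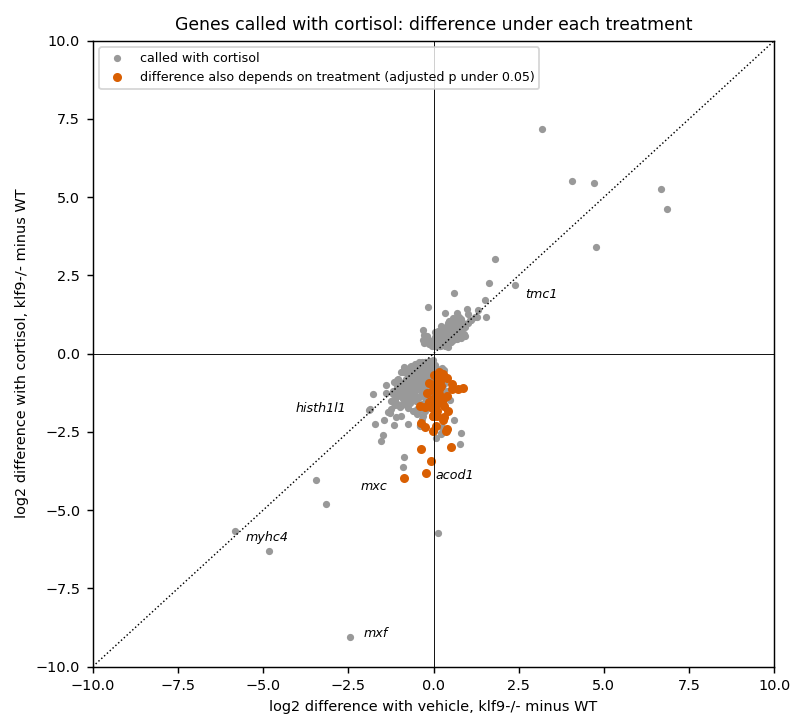
Log2 difference klf9-/- minus WT with vehicle (x axis) and with cortisol (y axis) for 646 called genes; 5 called genes listed at 0 in all 4 samples of a group are left out, and the dotted line marks equal differences. The genes whose difference was tested to depend on the treatment (orange) lie below 0 with cortisol and between -0.85 and 0.86 with vehicle, while myhc4, histh1l1 and tmc1 lie near the line.

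Sterol synthesis genes were lower in klf9-/- larvae with cortisol, and with vehicle 28 of the 29 genes tested also had a negative difference. The mevalonate and cholesterol pathway turns acetyl-CoA into cholesterol and is driven by the transcription factor SREBP2, which insig1 and sterols hold back. Of the 29 genes, 11 were lower with cortisol (37.9%) and 28 had a negative difference, with a median of -0.42 (-0.55 with vehicle, 3 called lower). CYP51A1 was the member called under both treatments, and no member had a called difference between the treatments (1 gene more negative and 4 more positive with cortisol at an unadjusted p under 0.05). In each of the 11 the groups did not overlap. The count was 6 without klf9-/- replicate 1 or 4 or WT replicate 4 and 7 without WT replicate 2, and 6 genes were called in every such fit.

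msmo1, which removes methyl groups from lanosterol derivatives, had 439, 619, 526 and 420 normalized counts in klf9-/- larvae and 1164, 1494, 920 and 1356 in WT larvae (log2 difference -1.29, SE 0.15, adjusted p = 0.0020). CYP51A1, the lanosterol demethylase, had 413, 737, 489 and 435 normalized counts in klf9-/- larvae and 1220, 1462, 901 and 1266 in WT larvae (log2 difference -1.24, SE 0.17, adjusted p = 0.0044). With vehicle CYP51A1 differed by -1.39 (adjusted p = 0.041).

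The members below had smaller differences than msmo1 and CYP51A1. lss, which closes the rings to form lanosterol, had 32, 49, 62 and 53 normalized counts in klf9-/- larvae and 70, 100, 112 and 135 in WT larvae (log2 difference -1.09, SE 0.16, adjusted p = 0.0064). tm7sf2, a sterol reductase, had 180, 188, 142 and 150 normalized counts in klf9-/- larvae and 308, 278, 226 and 251 in WT larvae (log2 difference -0.69, SE 0.07, adjusted p = 0.0010). insig1 had 298, 296, 282 and 288 normalized counts in klf9-/- larvae, a narrow range, and 482, 558, 426 and 398 in WT larvae (log2 difference -0.67, SE 0.08, adjusted p = 0.0021). ebp and mvda differed by -0.62 and -0.55 (adjusted p = 0.018 for each). Outside the rule for single genes, sc5d and nsdhl differed by -0.95 and -0.62, and fdps by -0.34 (adjusted p = 0.047, and 0.068 with a replicate block). fdps lost its call in 7 of the 8 fits without 1 sample. The transcription factor genes themselves, srebf2 (-0.14) and srebf1 (0.13), had small differences that were not called.

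**Figure D4:**
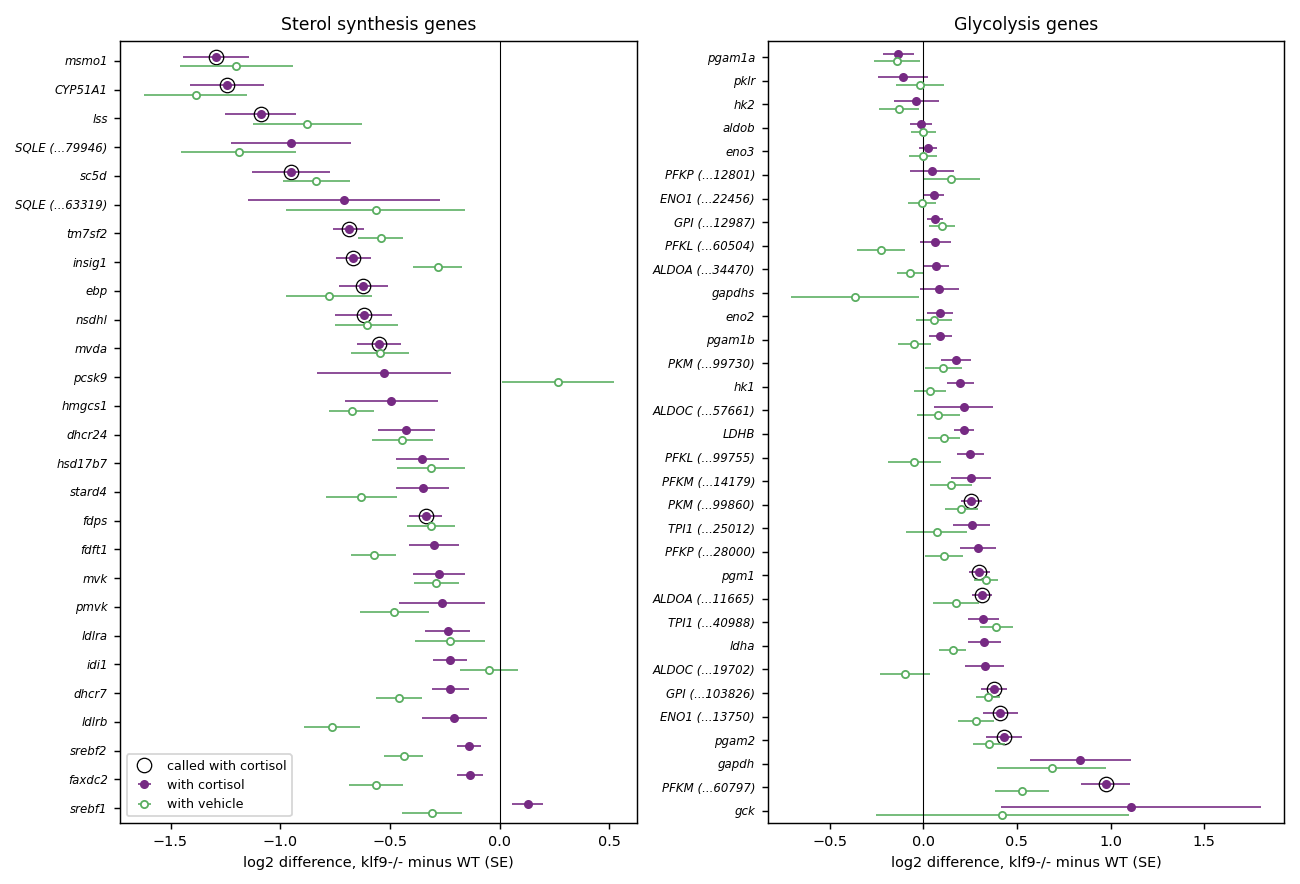
Log2 difference klf9-/- minus WT with its SE for 27 sterol synthesis genes (left) and 33 glycolysis genes (right) with cortisol (filled) and with vehicle (open); a black ring marks genes called with cortisol. Of the sterol genes plotted, 26 of 27 lie below 0 with cortisol, with msmo1 at -1.29, and of the glycolysis genes 29 of 33 lie above 0, with PFKM at 0.97.

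Lipid transport genes made in intestine and liver included 3 lower members among 34 of the list of fatty acid synthesis and lipid handling. These were the apolipoprotein genes apoa4b.1 (-0.42, adjusted p = 0.035) and apoea (-0.34, adjusted p = 0.036) and the fatty acid binding protein fabp1a (-0.25, adjusted p = 0.047). The calls of apoea and fabp1a were lost with a replicate block (adjusted p = 0.077 and 0.080), and none of the 3 was called in every fit without 1 sample.

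Glycolysis was the list with the most higher genes. Glycolysis splits glucose to pyruvate, and in larvae its muscle isoforms are abundant. Of 33 genes, 7 were higher (21.2%, against 0.903% of all genes) and 29 had a positive difference, with a median of 0.22 (0.10 with vehicle, none called by limma, 8 higher at an unadjusted p under 0.05). The median with cortisol was 0.238 on day 1 but 0.074 on day 2. With all 16 samples and a day effect shared by the treatments 2 genes were called, and 1 with eBayes without a trend. Without single samples the count was 1 (WT replicate 3 or 4), 3 (klf9-/- replicate 2 or 4 or WT replicate 1), 4 (WT replicate 2), 5 (klf9-/- replicate 3) or 6 (klf9-/- replicate 1). PFKM alone was called in all 8 of those fits. PFKM (ENSDARG00000060797), a muscle isoform of phosphofructokinase that commits sugar to glycolysis, had 296, 462, 321 and 310 normalized counts in klf9-/- larvae and 166, 212, 161 and 161 in WT larvae. All mutant samples lay above all WT samples, with a log2 difference of 0.97 (SE 0.13, adjusted p = 0.0042) and of 0.53 (adjusted p = 0.16) with vehicle. The other called enzymes differed by 0.26 to 0.43. pgm1, which feeds glycogen-derived glucose phosphate into the pathway, had 2906, 2958, 2906 and 3176 normalized counts in klf9-/- larvae and 2528, 2488, 2281 and 2408 in WT larvae, also without overlap (log2 difference 0.30, SE 0.05, adjusted p = 0.018). GPI (ENSDARG00000103826) and ALDOA (ENSDARG00000011665), the isomerase and aldolase steps, differed by 0.38 and 0.31 (adjusted p = 0.022 and 0.015). ALDOA had 7040, 7040, 8350 and 8350 normalized counts in WT larvae. These shared values limit what its adjusted p says about the spread between samples. The calls of pgam2 (0.43), ENO1 (0.41) and PKM (0.26) were lost with a replicate block (adjusted p = 0.065, 0.068 and 0.055).

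Gluconeogenesis and amino acid breakdown, which glucocorticoids raise in vertebrates, gave 1 higher and 2 lower genes of 29. fbp2, the muscle fructose bisphosphatase, had 1053, 1130, 586 and 477 normalized counts in klf9-/- larvae and 639, 565, 439 and 340 in WT larvae (log2 difference 0.66, SE 0.12, adjusted p = 0.016), and its groups overlapped across the days but not within them. The liver form fbp1b was lower (-0.33, adjusted p = 0.019, and 0.057 with a replicate block). Both genes lie on chromosome 5, the chromosome of klf9, with fbp2 456 genes and fbp1b 228 genes from it in gene order. PDK2 (ENSDARG00000059054), a kinase that shuts pyruvate out of the mitochondrial oxidation, was lower (log2 difference -0.57, SE 0.11, adjusted p = 0.023), with 2528, 2488, 2249 and 3368 normalized counts in klf9-/- larvae and 3368, 3948, 4129 and 4203 in WT larvae.

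Known glucocorticoid receptor targets and feedback genes gave 1 higher and 1 lower gene of 24, and the median difference was near that of all genes. hsd20b2, which inactivates cortisol by 20β reduction in zebrafish, had 237, 304, 173 and 159 normalized counts in klf9-/- larvae and 426, 513, 292 and 266 in WT larvae. Its log2 difference was -0.77 (SE 0.10, adjusted p = 0.0027) with cortisol and -0.74 (adjusted p = 0.0047) with vehicle. In the gene order of chromosome 5 it lies 308 genes from klf9. zbtb16b, a zinc finger repressor, was higher (0.37, adjusted p = 0.044, and 0.085 with a replicate block). It lost its call in each of the 8 fits without 1 sample (adjusted p = 0.063 to 0.12). cebpd and sgk1, induced by glucocorticoids in many tissues, had differences of -0.15 (SE 0.07, adjusted p = 0.29) and -0.16 (SE 0.08, adjusted p = 0.33) that did not pass the test.

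The other Krüppel-like and SP factors, relatives that can bind similar DNA elements, gave no call in 29 genes with limma. At an unadjusted p under 0.05 there were 3 higher and 1 lower, beside 3736 of all 21479 genes in either direction. KLF6 (0.03, SE 0.08), KLF7 (ENSDARG00000043821; 0.02, SE 0.07) and KLF5 (ENSDARG00000015506; 0.13, SE 0.07) had log2 differences near 0. Of 43 circadian clock genes 1 was called, lower (2.33%, beside 2.13% of all genes). It was nr1d2a, a Rev-erb nuclear receptor that represses clock genes, with 419, 426, 623 and 484 normalized counts in klf9-/- larvae and 594, 565, 728 and 895 in WT larvae (log2 difference -0.51, SE 0.09, adjusted p = 0.019, and 0.054 with a replicate block). The clock genes per2 (0.19, adjusted p = 0.23) and per3 (-0.11, adjusted p = 0.37) were not called. Immediate early genes gave no call in 28 with limma (1 higher and 1 lower at an unadjusted p under 0.05), and egr1 had a difference of 0.00 (SE 0.06).

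Digestive enzymes of the exocrine pancreas had mostly negative differences, in 24 of 25 genes, with a median of -0.44 (0.09 with vehicle), and 3 were called lower. The number called was 14 without klf9-/- replicate 2 and 1 without WT replicate 1, so that single samples decided it. pla2g1b, a secreted phospholipase, had 103, 140, 159 and 117 normalized counts in klf9-/- larvae and 375, 262, 213 and 314 in WT larvae, with no overlap (log2 difference -1.15, SE 0.18, adjusted p = 0.010), and was called in all fits without 1 sample. The procarboxypeptidase CPA1 (ENSDARG00000030915) differed by -0.70 (adjusted p = 0.012) and the zymogen granule protein SYCN (ENSDARG00000090899) by -1.37 (adjusted p = 0.046). In klf9-/- replicate 2 SYCN had 105 normalized counts, against 40, 54 and 23 in the other mutant samples and 160, 168, 101 and 87 in WT larvae.

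In muscle, the myosin heavy chain gene myhc4 was far lower in klf9-/- larvae. It had 49, 33, 46 and 58 normalized counts in klf9-/- larvae and 1124, 1430, 2831 and 6552 in WT larvae. Its log2 difference was -5.68 (SE 0.32, adjusted p = 5.4e-05), and it was -5.83 (adjusted p = 0.0010) with vehicle, where klf9-/- larvae had 42, 32, 94 and 76 and WT larvae 6814, 2372, 1516 and 4128. myha, a neighbouring myosin heavy chain gene, differed by -0.94 (SE 0.16, adjusted p = 0.014). Among the other 27 myosin genes none was called, and fast myosin myhz1.1 had 187032 normalized counts in every sample, the top value of the common distribution, so that no difference could be measured. Of 54 sarcomere and muscle genes, the myosin binding protein mybpc3 (0.31, adjusted p = 0.030) and the calcium release channel RYR1 (ENSDARG00000011422; 0.38, adjusted p = 0.030) were higher and the actinin actn2b lower (-0.42, adjusted p = 0.040), and all 3 lost their call with a replicate block (adjusted p = 0.077, 0.064 and 0.073).

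Among 34 linker histone and chromatin remodeler genes 2 were higher and 2 lower. histh1l1, a linker histone, had 1296, 915, 1390 and 1472 normalized counts in klf9-/- larvae and 4202, 3014, 4958 and 5090 in WT larvae. The groups were far apart, with a log2 difference of -1.76 (SE 0.12, adjusted p = 0.00011), and with vehicle the difference was -1.86 (adjusted p = 3.5e-05). h2ax, the histone phosphorylated at DNA breaks, was lower (-0.72, SE 0.09, adjusted p = 0.0027), and the chromatin remodeler smarca1 was higher (0.39, SE 0.08, adjusted p = 0.033). Cell cycle and replication genes gave 1 higher and 1 lower of 38. The lower one, RRM2 (ENSDARG00000020711), the small subunit of ribonucleotide reductase, differed between the days. It had 295, 264, 59 and 66 normalized counts in klf9-/- larvae and 615, 702, 552 and 471 in WT larvae (log2 difference -2.13, SE 0.30, adjusted p = 0.0049). It was the 1 called gene of this comparison whose genotype difference was also called between the days, out of 9 among all genes (0.0419%). Another gene of that name (ENSDARG00000078069) was higher by 0.49 (adjusted p = 0.034, and 0.055 with a replicate block).

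Heat shock genes gave 4 higher and 1 lower of 41. hsp70.1, an inducible chaperone, had 140, 164, 166 and 118 normalized counts in klf9-/- larvae and 70, 89, 92 and 88 in WT larvae, with no overlap (log2 difference 0.79, SE 0.13, adjusted p = 0.013), and it was the member called in all fits without 1 sample. hsp70l (0.55, adjusted p = 0.018), hspa1b (1.43, adjusted p = 0.022) and HSPA8 (ENSDARG00000037403; 0.89, adjusted p = 0.031) were the other higher genes, and the HSP90 co-chaperone AHSA1 (ENSDARG00000028664; -1.71, adjusted p = 0.033) the lower one. The number of higher members was 1 without WT replicate 2 or 3, 2 without klf9-/- replicate 1 or 3 or WT replicate 1, and 7 without klf9-/- replicate 4. HSPA8 and AHSA1 were not called with a replicate block (adjusted p = 0.064 and 0.050).

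Skin and ionocyte genes gave 4 higher and 4 lower of 47. krt1-19e, a keratin of the larval epidermis, had 71694, 71694, 26483 and 26483 normalized counts in klf9-/- larvae and 37939, 37939, 14044 and 14044 in WT larvae. On each day both mutant samples were above both WT samples, and the log2 difference was 0.92 (SE 0.04, adjusted p = 1.5e-05). The authors' normalization gives very abundant genes values that samples share, so that the identical pairs reflect equal ranks. For this reason the SE and adjusted p of krt1-19e do not measure the spread between samples. The same limit applies in part to other abundant genes whose samples share values, among them cyt1, krt8, rpl26, rpl14 and ALDOA (ENSDARG00000011665). The adjusted p of krt1-19e was 0.13 in limma with all 16 samples and a day effect shared by the treatments. With vehicle krt1-19e differed by 0.44 (adjusted p = 0.44). Annexin A1 genes, which encode membrane-binding proteins, went in both directions. anxa1b had 1517, 1748, 1054 and 722 normalized counts in klf9-/- larvae and 800, 1080, 320 and 296 in WT larvae (log2 difference 1.16, SE 0.17, adjusted p = 0.0059). ANXA1 differed by -0.58 (SE 0.08, adjusted p = 0.0042) and anxa1c by -0.89 (SE 0.20, adjusted p = 0.042). With vehicle anxa1b differed by 1.55 (adjusted p = 0.010), ANXA1 by -0.96 (adjusted p = 0.084) and anxa1c by -1.15 (adjusted p = 0.078). On chromosome 5, anxa1b and anxa1c lie 767 and 766 genes from klf9. atp1a1a.5, a sodium pump subunit of ionocytes, was lower (-0.86, SE 0.12, adjusted p = 0.0055), with 172, 121, 112 and 106 normalized counts in klf9-/- larvae and 220, 238, 237 and 216 in WT larvae. The remaining called members were cyt1 (0.72) and krt8 (0.31), both keratins, and the sodium pump subunit atp1a1a.4 (-0.26), of which krt8 and atp1a1a.4 lost their call with a replicate block (adjusted p = 0.056 and 0.076). The higher members numbered 2 without WT replicate 1, 2 or 3, and the lower members 2 without klf9-/- replicate 2, 3 or 4 or WT replicate 1, 3 or 4.

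Other tissue lists gave few calls. Lens crystallins had positive differences in 42 of 45 genes, with a median of 0.23, and 17 were higher and 0 lower at an unadjusted p under 0.05, of which 1 was called (cryba1l1, 0.44, adjusted p = 0.025). Collagens and matrix genes had 39 of 43 positive with a median of 0.20, and 15 were higher and 0 lower at an unadjusted p under 0.05, of which 2 were called, COL11A1 (0.46, adjusted p = 0.031) and col9a3 (0.31, adjusted p = 0.046, and 0.061 with a replicate block). Synaptic genes had 50 of 52 positive with a median of 0.10 and no call with limma (5 higher and 0 lower at an unadjusted p under 0.05). The synaptic median was 0.241 on day 1 but -0.043 on day 2, so that the shift was not seen on day 2. The medians on day 1 and day 2 were 0.049 and 0.401 for lens crystallins. They were 0.175 and 0.213 for collagens and matrix genes. Among all 21479 genes tested, 11684 had a positive difference. The retinal genes rbp3 (0.39, adjusted p = 0.034) and RPE65 (ENSDARG00000007480; 0.35, adjusted p = 0.037, and 0.087 with a replicate block) were higher among 55 tested in the photoreceptor list. Erythrocyte genes gave alas2, the first enzyme of heme synthesis in red cells (-0.48, adjusted p = 0.013), and cytosolic ribosomal proteins gave rpl26 (-0.37, adjusted p = 0.0029) and rpl14 (-0.20, adjusted p = 0.048, and 0.12 with a replicate block) of 79. rpl26 had 12088, 12088, 9122 and 9122 normalized counts in klf9-/- larvae and 15582, 16883, 11412 and 11412 in WT larvae. Such shared values, also seen in rpl14, limit what the adjusted p of these genes says about the spread between samples. The mitochondrial respiratory chain (78 genes) and the thyroid axis (15 genes) had no call with limma, with 4 higher and 3 lower and 1 higher and 0 lower at an unadjusted p under 0.05. Muscle atrophy and growth genes (25) had no call with limma either, with 3 higher and 5 lower at an unadjusted p under 0.05. Among 36 C/EBP factors and metabolic nuclear receptors with their targets, the xenobiotic cytochrome cyp3a65 was lower, with 3561, 3561, 3948 and 4540 normalized counts in klf9-/- larvae and 5092, 4540, 6196 and 6196 in WT larvae (log2 difference -0.49, SE 0.06, adjusted p = 0.0029; -0.46, adjusted p = 0.032 with vehicle).

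Several of the genes with the largest positive differences were also called higher with vehicle. tmc1, a channel subunit through which hair cells turn sound and movement into current, had 119, 87, 66 and 113 normalized counts in klf9-/- larvae and 22, 16, 24 and 21 in WT larvae. Its groups were far apart, with a log2 difference of 2.19 (SE 0.21, adjusted p = 0.00065) and of 2.38 (adjusted p = 5.1e-05) with vehicle. TMC2 (ENSDARG00000030311), a second hair cell channel subunit, had 33, 22, 22 and 26 normalized counts in klf9-/- larvae and 3, 6, 8 and 5 in WT larvae (log2 difference 2.27, SE 0.31, adjusted p = 0.0042; 1.63, adjusted p = 0.015 with vehicle). thy1, a surface glycoprotein of neurons and lymphocytes in mammals, had 565, 558, 283 and 209 normalized counts in klf9-/- larvae and 206, 154, 85 and 60 in WT larvae (log2 difference 1.71, SE 0.14, adjusted p = 0.00031; 1.51, adjusted p = 0.0047 with vehicle). The hatching enzyme gene he1.2, whose protease dissolves the egg envelope, had 107, 28, 18 and 9 normalized counts in klf9-/- larvae and 1, 0, 0 and 0 in WT larvae, a difference of 1.94 with 10 added before log2 (adjusted p = 0.020). Its copy he1.1 had 279, 80, 59 and 31 in klf9-/- larvae and 22, 2, 2 and 0 in WT larvae (2.66 with 10 added, adjusted p = 0.0059), but lost its call without klf9-/- replicate 1, 3 or 4 or WT replicate 2 (adjusted p = 0.051 to 0.074). Neither was called with vehicle.

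Several predicted genes with no assigned role were low or listed at 0 in WT larvae. si:dkey-47k20.6 had 80, 40, 82 and 76 normalized counts in klf9-/- larvae and 2, 0, 6 and 4 in WT larvae, a difference of 2.59 with 10 added (adjusted p = 9.4e-05). si:dkey-149m13.3 had 54, 14, 68 and 97 normalized counts in klf9-/- larvae and 0, 4, 0 and 0 in WT larvae (2.46 with 10 added, adjusted p = 0.0046), and with vehicle it had 42, 50, 84 and 92 in klf9-/- larvae and was listed at 0 in all WT samples. si:ch211-114l13.11 had 667, 484, 674 and 864 normalized counts in klf9-/- larvae and 1, 68, 46 and 25 in WT larvae (4.21 with 10 added, adjusted p = 0.0013). In all 3 every mutant sample lay above every WT sample, and si:ch211-114l13.11 lost its call without klf9-/- replicate 1, 2 or 4 or WT replicate 4 (adjusted p = 0.054 to 0.082). Another, si:dkey-239j18.3, was listed at 0 in all 4 WT samples with cortisol and at 52, 9, 3 and 6 normalized counts in klf9-/- larvae, and it lost its call without klf9-/- replicate 1 (adjusted p = 0.15), 2 (0.070) or 4 (0.067).

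Genes near klf9 on chromosome 5 were called more often than genes elsewhere. The files hold no positions, and distances were therefore counted in genes in the RefSeq order of the later assembly GRCz12tu, which placed 15099 of the genes. Apart from klf9, 66 tested genes lay within 50 genes of it, and 6 were higher and 9 lower (22.7%, against 3.03% of all genes tested). From 51 to 200 genes away 5 were higher and 17 lower of 186 (11.8%), beyond that 12 and 19 of 583 (5.32%), and on the other chromosomes 111 and 253 of 13601 (2.68%). The other chromosomes differed among themselves. Chromosome 4 had 5 higher and 27 lower of 552 (5.8%), a larger share than the genes of chromosome 5 beyond 200 genes from klf9. With vehicle, 5 of the called genes within 50 genes and 9 of those at 51 to 200 genes were called in the same direction. The mutant line descends from 1 founder, so that a difference made by klf9 and one made by other alleles inherited beside it cannot be told apart for these genes.

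tmc1 lies 7 genes from klf9, histh1l1 37 genes, thy1 93 genes, h2ax 113 genes, smarca1 132 genes, myhc4 162 genes and isg15 172 genes from it. cyp1d1, a cytochrome P450 gene 9 genes away, had 242, 260, 214 and 211 normalized counts in klf9-/- larvae and 139, 134, 121 and 117 in WT larvae (log2 difference 0.86, SE 0.07, adjusted p = 0.00021; 0.77, adjusted p = 0.0072 with vehicle). mpdu1a, which is needed for the use of dolichol-linked sugars in glycosylation, lies 46 genes away and had 192, 220, 171 and 180 normalized counts in klf9-/- larvae and 115, 103, 100 and 100 in WT larvae (log2 difference 0.86, SE 0.08, adjusted p = 0.00063). tcn2, a carrier of vitamin B12, lies 22 genes away and had 666, 626, 500 and 481 normalized counts in klf9-/- larvae and 1012, 1411, 808 and 852 in WT larvae (log2 difference -0.82, SE 0.10, adjusted p = 0.0019; -0.81, adjusted p = 0.0015 with vehicle). In all 3 genes the groups did not overlap. cyp1d1, mpdu1a and tcn2 were named after their values had been seen.

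**Figure D5:**
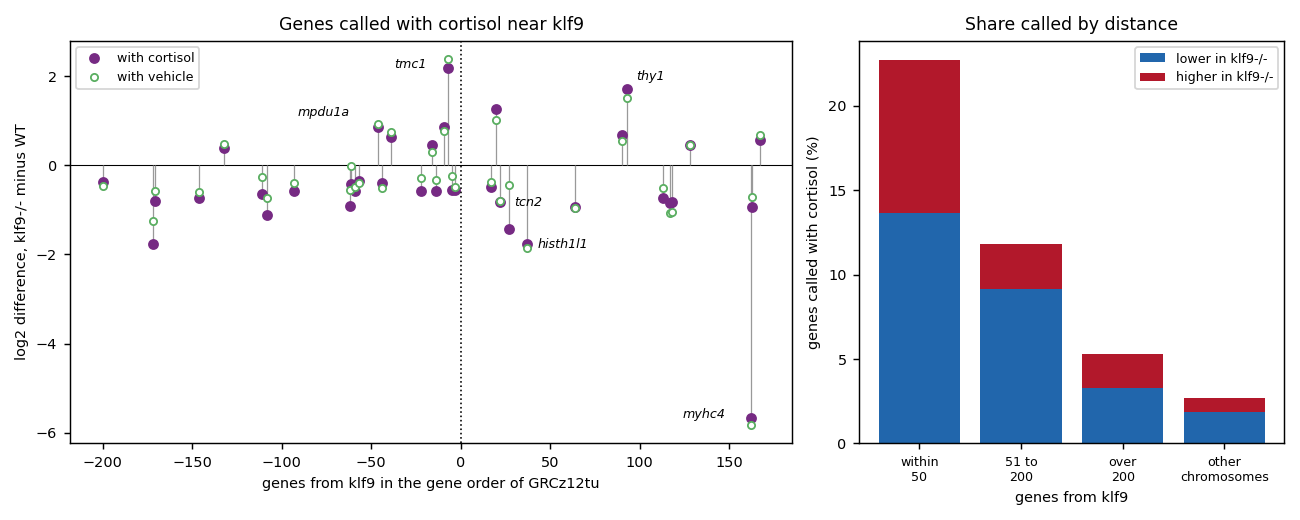
Left, log2 difference klf9-/- minus WT of the called genes up to 200 genes from klf9 (x axis, position in the gene order of GRCz12tu; klf9 itself left out), with cortisol (filled) and vehicle (open); right, percentage of tested genes called lower (blue) and higher (red) by distance. The share called is 22.7% within 50 genes, 11.8% at 51 to 200, 5.32% beyond and 2.68% on other chromosomes, and the filled and open points of tmc1, histh1l1 and thy1 lie on the same side of 0.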

How the data were processed

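RNA of whole larvae was sequenced from polyA libraries. Per the labels and their processing notes, the authors trimmed single-end reads with Trimmomatic 0.38, aligned them to GRCz11 with STAR 2.6.1b and estimated counts with RSEM 1.3.0. The deposited values are log2 of counts that the authors normalized with EDASeq for GC content within samples and by full quantiles between samples, with 0.1 added before log2. Quantile scaling removes differences in total RNA and depth, and the depth of each sample is unknown.

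The log2 values were tested in limma 3.58.1 (R 4.3.3; trended eBayes, two-sided) for 21479 of 22959 genes that were not constant, whose mean reached 5 normalized counts. Genotype was compared over the 8 cortisol samples with preparation day as a covariate. The difference between treatments was tested over all 16 samples with a day effect in each treatment. Symbols came from the gene name table for 21794 genes. No values of the authors' own comparisons were used.

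The study's methods, not the labels, tie replicates 1 and 2 to one preparation day and 3 and 4 to the other. The methods state that the addition of lysis buffer before homogenization differed between the days. The paper also states that the split follows the order of sample collection, so that these cannot be told apart. Same-numbered samples deviated together from their group means (r of 0.506 to 0.687) but not from their means by group and day (r of -0.03 to 0.02). Alternatives changed the filter, the value added before log2, the scaling, the samples in the fit, the day or block term and the variance model, and left out each sample.

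Genes named singly were klf9, the 15 largest called differences in each direction with a symbol and the same sign in all 4 pairs, up to 8 called members a list by adjusted p, and the 3 members with the highest mean for lists with fewer than 3 called. Exceptions are stated, and a few genes are counted in their lists but not reported here. The comparison and the lists were chosen with earlier results of these data known.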

Additional observations from a re-analysis of the deposited data

Results flagged for a closer look

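Of the 57 genes with a called difference between the treatments in limma, 17 were named under the rule and are given here. They are not the same set as the 17 list members counted above. In each the klf9-/- minus WT difference was more negative with cortisol than with vehicle. The cortisol minus vehicle differences (log2) of interferon and proteasome genes were -3.12 for mxc, -2.47 for irf1b, -1.73 for gbp1, -1.68 for xaf1, -1.07 for parp14rs1, -1.46 for psme2 and -0.87 for psme1. Those of macrophage and neutrophil genes were -3.59 for acod1, -3.49 for LECT2 (ENSDARG00000090889), -2.10 for MFAP4 (ENSDARG00000090783), -1.68 for MFAP4 (ENSDARG00000088745), -1.74 for marco, -1.43 for cybb, -1.26 for MPEG1 (ENSDARG00000043093) and -1.13 for ncf1. The glucose transporter slc2a6 had -2.69 and the predicted gene si:ch211-284o19.8 had -3.39.

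In 18 of 325 groups of 4 samples 1 sample stood apart, with a gap to its nearest neighbour that exceeded Dixon's limit as a share of the group's range. About 1 group in 20 meets this limit by chance. In klf9-/- larvae with cortisol the gaps were 0.894 for si:dkey-47k20.6, 0.9 for cybb, 0.842 for pgam2 and 0.834 for mmp9. In WT larvae with cortisol they were 0.839 for klf9, 0.889 for PFKM (ENSDARG00000060797) and 0.837 for hsp70.1. A gap of 1.0, where the other 3 samples were equal, was found in klf9-/- larvae for mxf, ifi44a8, si:dkey-188g12.2, acod1, krt8, COL1A1 and MYL1 (ENSDARG00000017441), and in WT larvae for si:dkey-149m13.3, he1.2, cyt1 and the same MYL1.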

How the results depend on the processing

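The depth behind each value is unknown, the 4 samples of a condition share a dish, and the counts of calls rest on the preparation day as a covariate. Without it, 2 genes were higher and 17 lower. Day 1 alone gave 9 higher and 41 lower, and day 2 alone 6 and 9. A limit of 75 on the mean normalized count gave 88 higher and 169 lower, eBayes without a trend gave 92 higher, and the limits used in the study (that mean, an absolute log2 difference of at least 0.5 and an SE under 1) gave 44 and 136. Leaving out single samples gave 78 to 176 higher and 248 to 496 lower genes. With a replicate block, which pairs same-numbered samples, 135 were higher and 370 lower, and 192 of the 651 calls were lost. klf9 differed by -1.78 on day 1 alone (adjusted p = 0.11) and -1.5 on day 2 alone (adjusted p = 0.099) in limma, by -1.74 to -1.49 without single samples, and by -1.64 with the replicate block (adjusted p = 0.00031). Differences more negative with cortisol numbered 36 with a shared day, 47 with the replicate block and 32 to 76 without single samples, and those more positive 0 to 21 without single samples. The cause of these changes was not tested. Besides klf9, the 112 called genes named under the rule kept their direction under each of these settings in which they were tested. Their same sign in all 4 pairs fixes that direction for most settings, so that it is no separate check. Of the 112, 101 lost their call without the day covariate, 96 on day 1 alone and 107 on day 2 alone. With all 16 samples and a day effect shared by the treatments, 44 lost it.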

Other observations

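The genes below were chosen singly after their values had been seen, and none is among the called members of the lists above. The list of fatty acid synthesis and lipid handling, counted above, had a median of -0.04. Of its 34 genes, 20 had a negative and 14 a positive difference, and 3 were called lower. apoa4b.2, an apolipoprotein of dietary fat transport, had 4202, 3625, 2904 and 3304 normalized counts in klf9-/- larvae with cortisol and 9630, 10699, 4654 and 4380 in WT larvae with cortisol. The groups did not overlap, with a log2 difference of -0.96 (adjusted p = 0.0084 in limma) and of -0.78 with vehicle (adjusted p = 0.033). Its neighbour in name apoa4b.3 differed by -1.15 (adjusted p = 0.0054), the intestinal phosphatase alp3 by -0.95 (adjusted p = 0.0032) and npc1l1, which takes up dietary cholesterol, by -0.59 (adjusted p = 0.012). elovl2, which lengthens polyunsaturated fatty acids, had 426, 568, 398 and 450 normalized counts in klf9-/- larvae and 992, 1044, 766 and 940 in WT larvae, without overlap (log2 difference -1.03, adjusted p = 0.00084; -0.81, adjusted p = 0.017 with vehicle). The hepatic lipase gene LIPC was higher, with 88, 86, 79 and 78 normalized counts in klf9-/- larvae and 48, 42, 30 and 38 in WT larvae (log2 difference 1.08, adjusted p = 0.0011; 1.06, adjusted p = 0.026 with vehicle).

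Further genes were lower with cortisol and had a called difference between the treatments. olfm4l2, an olfactomedin family gene, had 88, 94, 62 and 55 normalized counts in klf9-/- larvae with cortisol and 462, 404, 223 and 176 in WT larvae with cortisol, a difference of -2.0 (adjusted p = 6.4e-05), against -0.02 with vehicle. sult5a1, a sulfotransferase, had 68, 52, 25 and 24 normalized counts in klf9-/- larvae and 310, 296, 97 and 86 in WT larvae (-2.12, adjusted p = 5.4e-05; 0.27 with vehicle). lygl1, a g-type lysozyme, had 156, 140, 80 and 75 normalized counts in klf9-/- larvae and 536, 475, 204 and 186 in WT larvae (-1.55, adjusted p = 0.00011; -0.14 with vehicle). The groups of these 3 genes did not overlap. The androgen receptor gene ar had 19, 23, 40 and 46 normalized counts in klf9-/- larvae and 80, 60, 84 and 90 in WT larvae (-1.37, adjusted p = 0.0027), and its difference between the treatments was not called (adjusted p = 0.62).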
